A study of Mus musculus with 12 samples.

Results

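Expression of 9 chemokine receptor genes was examined in the eosinophils of the mouse small intestine (SI). The genes were Ccr1, Ccr1l1, Ccr2, Ccr3, Ccr9, Ccrl2, Cxcr2, Cxcr4, and Cx3cr1, members of the chemokine receptor family that were chosen with earlier results of these data known, and they are 9 of the 36047 genes in the table of normalized counts. RNA was sequenced from 3 subsets of eosinophils with 4 libraries each, 12 in all. The α4β7+ subset carries the gut-homing integrin α4β7, the CD22+ subset carries the lectin CD22, and the α4β7− CD22− subset carries neither. In the study these subsets stand approximately for younger, older, and intermediate eosinophils of the tissue, respectively. All subsets came from the lamina propria of wild type C57BL/6J mice on standard chow, labelled as female, whereas the study's methods list both sexes, aged 6 to 12 wk. Cells were sorted as live CD45+ CD11b+ SiglecF+ MHCII− Ly6G−, each library pooled the cells of 2 mice, and 3 ng of RNA entered library preparation. The study describes the libraries of a subset as biological replicates.

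Chemokine receptors are G protein-coupled receptors of the cell surface that make leukocytes move along gradients of small secreted proteins, the chemokines. Most of them couple to inhibitory G proteins, and they are switched off by receptor kinases, arrestins, and RGS proteins. Ccr3 encodes the receptor for the eotaxins and is the defining chemokine receptor of eosinophils, which leave the bone marrow and settle in the gut along eotaxin gradients. The set also holds receptors better known from other cells, such as Cxcr2 of neutrophils, Ccr2 and Cx3cr1 of monocytes, and Ccr9, which directs lymphocytes to the SI. Several of these genes lie close together on chromosome 9. In GRCm38, 7 of the 9 genes are on chromosome 9, and 5 of them (Ccr9, Ccr1, Ccr1l1, Ccr3, and Ccr2) lie within 435.1 kb that hold 9 protein-coding genes. Cxcr2 and Cxcr4 are on chromosome 1.

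Of the 9 genes, 5 passed the test between the CD22+ and α4β7+ subsets. Ccr3, Ccrl2, Cxcr4, and Ccr1l1 were lower and Cxcr2 was higher in CD22+ eosinophils, and the sequences before their start sites are shown here because these genes carry the differences described below. Each is the 250 bases upstream of the RefSeq start on GRCm38.p6, read 5′ to 3′ on the strand of the gene. The windows are chr9:124021721-124021970 (plus strand) for Ccr3, chr9:123986716-123986965 (minus) for Ccr1l1, chr9:111057245-111057494 (minus) for Ccrl2, chr1:128592300-128592549 (minus) for Cxcr4, and chr1:74153744-74153993 (plus) for Cxcr2. RefSeq gives Ccrl2 several starts, of which the most downstream is shown, and places the start of Ccr1l1 upstream of the single-exon model of GENCODE. Capitals mark matches on either strand to GATAA (the core bound by GATA factors), TGAGTCA (AP-1), TTCNNNGAA (STAT proteins), GCGTG (the aryl hydrocarbon receptor core), or AGGTCA (the half-site of nuclear receptors such as those for retinoic acid).
Ccr3: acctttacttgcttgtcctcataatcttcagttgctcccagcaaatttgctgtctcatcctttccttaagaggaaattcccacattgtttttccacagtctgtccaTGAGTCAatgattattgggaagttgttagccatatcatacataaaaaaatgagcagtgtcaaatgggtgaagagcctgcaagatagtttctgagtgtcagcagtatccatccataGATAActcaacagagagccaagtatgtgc
Ccr1l1: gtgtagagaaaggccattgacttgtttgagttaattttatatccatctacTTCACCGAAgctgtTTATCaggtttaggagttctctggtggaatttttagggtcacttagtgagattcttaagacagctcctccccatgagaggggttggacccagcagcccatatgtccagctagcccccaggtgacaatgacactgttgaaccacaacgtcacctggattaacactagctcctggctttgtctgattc
Ccrl2: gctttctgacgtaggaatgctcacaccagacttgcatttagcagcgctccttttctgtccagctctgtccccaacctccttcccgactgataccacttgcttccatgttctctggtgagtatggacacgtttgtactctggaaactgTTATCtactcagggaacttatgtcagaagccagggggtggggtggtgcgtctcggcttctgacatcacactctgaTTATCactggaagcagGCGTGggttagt
Cxcr4: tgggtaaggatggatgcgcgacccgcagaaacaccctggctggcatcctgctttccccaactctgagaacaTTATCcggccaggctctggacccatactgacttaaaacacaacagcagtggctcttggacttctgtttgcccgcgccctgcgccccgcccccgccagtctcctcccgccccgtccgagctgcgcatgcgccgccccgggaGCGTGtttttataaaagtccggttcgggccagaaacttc
Cxcr2: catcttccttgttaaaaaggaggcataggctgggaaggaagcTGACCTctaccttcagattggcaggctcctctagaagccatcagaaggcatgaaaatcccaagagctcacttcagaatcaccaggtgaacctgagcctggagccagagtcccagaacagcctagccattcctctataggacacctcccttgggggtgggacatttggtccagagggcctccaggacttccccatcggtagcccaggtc

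GATAA or its reverse complement occurred in the 4 windows shown for the genes that were lower, once in Ccr3 at 29 to 25 bases before the start, once in Ccr1l1, once in Cxcr4, and in 2 places in Ccrl2. Of the other starts of Ccrl2, the middle one had 1 match in its window and the most upstream one had none. The windows of the middle and the shown start overlap, and that match is the same site as the more upstream match shown. The motif also occurred before Ccr2, which did not pass the test, and was not in the window of Cxcr2. These 5 bases are common, with a match in 22.6% of the 32851 RefSeq windows of the same length and before 25.5% of the genes. The window of Cxcr2 held 1 match to AGGTCA, which occurred before 15.8% of the genes. TGAGTCA was found only in the window of Ccr3 among the 9 genes (4.5% of all windows), and TTCNNNGAA only in that of Ccr1l1 (7.0%). GCGTG was found before Cxcr4, Ccrl2, and Ccr1 (28.2%). These matches are descriptions of the letters in the windows, and binding was not measured in these libraries.

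The deposited values are normalized counts, read counts per gene divided by the authors' scaling factors. They summed to between 14286474 and 16915755 in a library, highest in the α4β7+ subset and lowest in the CD22+ subset, and 19760 to 21960 genes lay above 0. About 3 reads corresponded to 2.56 to 3.48 normalized counts, a floor that covers counting error only, and each of the 9 receptor genes lay well above it in every library. Itgb7, which encodes the β7 chain used in the sort, averaged 2526 normalized counts for α4β7+, 220.4 for α4β7− CD22−, and 156 for CD22+ libraries, and Cd22 averaged 1115, 4462, and 13334 in that order. The eosinophil genes Siglecf and Il5ra were present in every library, Siglecf at 6884 to 8594 and Il5ra at 1648 to 3077. Genes with a mean above 10 were tested with limma on log2(normalized count + 1), and a call required both an adjusted p (Benjamini-Hochberg) no higher than 0.05 and a difference of 1.5-fold or more. All 9 receptor genes were among the 15249 tested.

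Of the 9 genes, 3 were called between α4β7− CD22− and α4β7+ eosinophils, 1 higher and 2 lower, where 8.05% of all tested genes were called (3.7% higher and 4.35% lower). Between CD22+ and α4β7+ eosinophils 5 were called, 1 higher and 4 lower, where 12% of all tested genes were called (5.6% higher and 6.39% lower). Ccr1l1 alone was called between CD22+ and α4β7− CD22− eosinophils, as lower, where 0.603% of all tested genes were called and 0.393% were lower. Libraries did not overlap for 5 of the 9 genes in each comparison with α4β7+ (Ccr3, Ccrl2, Cxcr4, Cxcr2, and Ccr1l1), beside 18.8% of all tested genes for α4β7− CD22− and 22.9% for CD22+. Between CD22+ and α4β7− CD22− they did not overlap for 6 of the 9 genes, beside 6.37%. The median log2 fold change of the 9 genes in these comparisons was −0.38, −0.48, and −0.18, beside medians of 0.00, 0.01, and −0.00 over all tested genes. The first and second comparisons share the α4β7+ libraries and are given side by side for that reason. In these bulk samples, fewer cells that express a gene and less RNA per cell cannot be told apart.

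**Figure D1:**
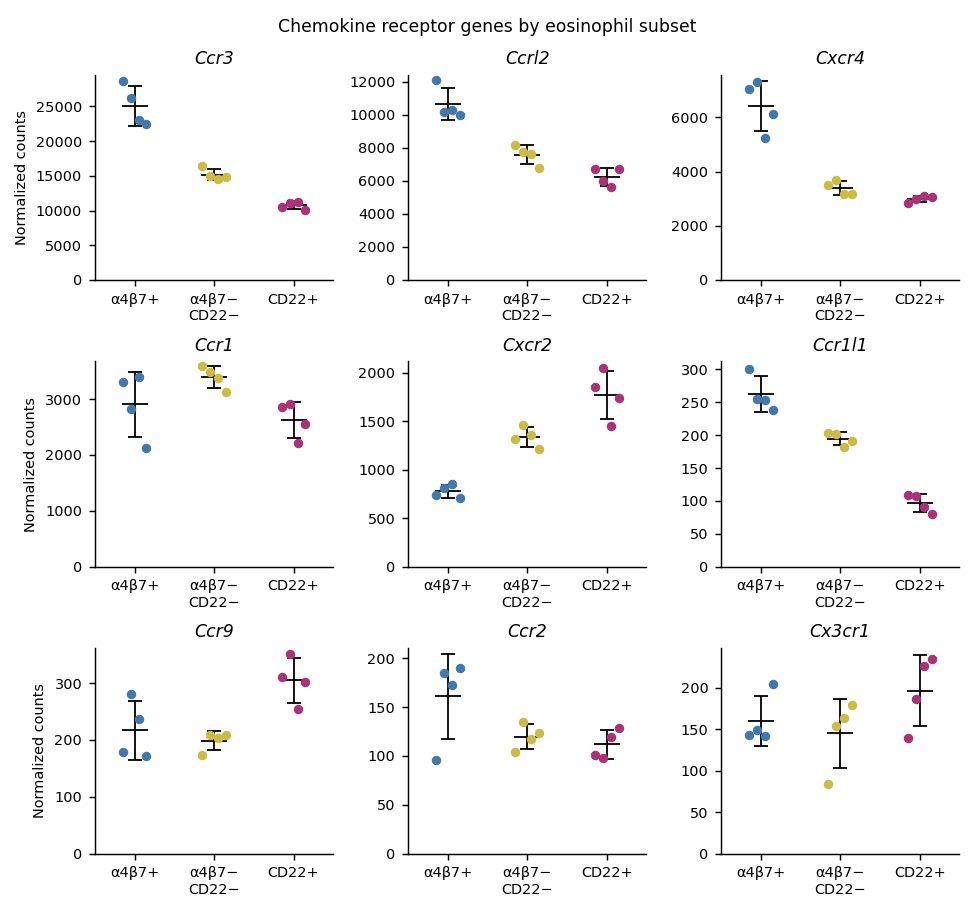
Normalized counts (vertical axis, linear from 0) of the 9 chemokine receptor genes in each of the 12 libraries, by subset; points are libraries and the bars are the mean ± SD over 4 libraries. Ccr3, Ccrl2, Cxcr4, and Ccr1l1 step down from α4β7+ to CD22+ without overlap between those subsets, Cxcr2 steps up, from 712 to 856 in α4β7+ to between 1449.8 and 2050.2 in CD22+, and Ccr2 and Cx3cr1 overlap between all subsets.

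Ccr3 RNA had the highest level of the 9 genes and was lower in each successive subset. The study also stained these subsets for CCR3 protein by flow cytometry, which was not compared here. The gene is located at chr9:124021972-124031689 on the plus strand, and its window with GATAA and TGAGTCA is the first of those printed above. The 4 α4β7+ libraries held 28671, 26208, 23069, and 22535 normalized counts, the α4β7− CD22− libraries 16376, 15049, 14526, and 14797, and the CD22+ libraries 10551, 11150.3, 11289, and 10103. No library of one subset reached the range of another. The mean fell from 25121 ± 2868 (SD, n = 4) in α4β7+ to 15187 ± 821 in α4β7− CD22− eosinophils, a log2 fold change of −0.72 ± 0.0785 (SE, adjusted p = 1.96e-05, limma). Compared with α4β7+, the level in CD22+ eosinophils (10773 ± 549.6) was 2.32-fold lower (log2 fold change −1.22 ± 0.0785, adjusted p = 4.45e-08). Between CD22+ and α4β7− CD22− eosinophils the difference was −0.50 (adjusted p = 0.00593), which is 1.41-fold and below the fold threshold. With quantile normalization the first of these differences was −0.53 (adjusted p = 0.000374), also below the fold threshold. Under other settings the difference between CD22+ and α4β7− CD22− ranged from −0.50 to −0.37, with a limma adjusted p up to 0.0635.

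Other genes that mark eosinophils are given beside Ccr3. Of 6 such markers, 3 were called lower in CD22+ than in α4β7+ eosinophils, beside 6.39% of all tested genes, namely Epx (mean 149.7 in α4β7+ and 68.9 in CD22+), Prg2 (352 and 109.7), and Il5ra (2864 and 1793). Gata1 differed by −0.53 (adjusted p = 0.0068), below the fold threshold, and Siglecf (−0.04) and Prg3 (−0.42) were not called. The 6 markers summed to between 11223 and 12655 normalized counts among α4β7+ libraries, 10588 and 11877 among α4β7− CD22− libraries, and 9736 and 10195 among CD22+ libraries. With the subset means removed, r with this sum over 12 libraries was 0.71 for Ccrl2, 0.64 for Ccr3, 0.61 for Ccr1l1, 0.50 for Cxcr4, and −0.05 for Cxcr2. Among 10 marker lists, the r farthest from 0 was 0.79 for Ccr3 with the neutrophil sum, most of it Retnlg, 0.71 for Cxcr4 with the stroma or endothelium sum, most of it Pecam1, and −0.61 for Cxcr2 with the enterocyte sum. For Ccr1l1 it was −0.82 with the monocyte or macrophage sum, next to −0.79 with the enterocyte sum, and for Ccrl2 it was the eosinophil sum. The part of these markers in the receptor results was not tested.

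The eotaxin genes Ccl11 and Ccl24, whose products are ligands of Ccr3, had low levels in these eosinophils. Ccl11 lay between 1.01 and 13 normalized counts in the 12 libraries and did not pass the filter on low values. Ccl24 lay between 0.822 and 53.4, and its log2 fold change between CD22+ and α4β7+ was 0.44 (adjusted p = 0.771).

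Ccr1 encodes a receptor for Ccl3, Ccl5, and other inflammatory chemokines, and it was not called in any comparison although it lies 59.8 kb from Ccr3. Its levels were 3299.8, 2819, 3396, and 2126 in the α4β7+ libraries, 3596, 3482, 3383, and 3117 in the α4β7− CD22− libraries, and 2857, 2908, 2212, and 2546 in the CD22+ libraries. The α4β7+ libraries spanned the range of the CD22+ libraries, and the α4β7− CD22− libraries all lay above those of CD22+. The log2 fold changes were 0.24 ± 0.131 for α4β7− CD22− and −0.13 ± 0.131 for CD22+ over α4β7+ (adjusted p = 0.255 and 0.547). CD22+ over α4β7− CD22− gave −0.37 ± 0.131 (adjusted p = 0.286). The ratio of Ccr3 to Ccr1 within a library was 8.84 ± 1.58 (SD, n = 4) for α4β7+, 4.48 ± 0.213 for α4β7− CD22−, and 4.15 ± 0.646 for CD22+ eosinophils.

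Ccr1l1, a gene of rodents beside Ccr1 and similar to it, was the gene of the set with the largest difference between CD22+ and α4β7+ eosinophils on the log2 scale. It lies 15.1 kb from Ccr1 at chr9:123977243-123978408 on the minus strand. The α4β7+ libraries had 301, 255, 254, and 238 normalized counts, those of α4β7− CD22− had 204, 202, 182, and 191, and those of CD22+ had 109, 108, 91.5, and 79.7. The 3 ranges did not overlap. The fall from α4β7+ to CD22+ was 2.69-fold (log2 fold change −1.43 ± 0.144, adjusted p = 4.07e-06), and that from α4β7− CD22− to CD22+ was 2.01-fold (−1.01 ± 0.144, adjusted p = 0.00273). Between α4β7− CD22− and α4β7+ the difference was −0.42 (adjusted p = 0.0637). Only 0.09% of its 31-base words occurred in another gene, with 1 word shared with Ccr1.

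Ccrl2 encodes an atypical receptor that binds chemerin without signalling, and it was second to Ccr3 in normalized counts per kilobase. Its values were 12105, 10183, 10302, and 9963 in α4β7+, 8183, 7743, 7630.2, and 6788 in α4β7− CD22−, and 6691, 5967, 5595, and 6721 in CD22+ libraries. The subsets did not overlap, with the lowest α4β7− CD22− library just above the highest CD22+ library. Ccrl2 fell 1.7-fold from α4β7+ to CD22+ eosinophils (log2 fold change −0.77 ± 0.0846, adjusted p = 9.99e-06). From α4β7+ to α4β7− CD22− the difference was −0.49 ± 0.0846 (adjusted p = 0.00114), 1.4-fold and below the fold threshold, and between CD22+ and α4β7− CD22− it was −0.28 (adjusted p = 0.177). Rarres2, the gene for chemerin, had 1.03 to 68.8 normalized counts in the 12 libraries and was not called.

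Cxcr4 encodes the receptor for Cxcl12, which holds leukocytes in the bone marrow and in tissue niches. Normalized counts were 7034, 7302, 5251, and 6109 among α4β7+ libraries, 3514, 3705, 3180.3, and 3179 among α4β7− CD22− libraries, and 2848, 2983, 3087, and 3075 among CD22+ libraries. The α4β7+ libraries lay far above the others, while the other subsets lay close together. Cxcr4 fell 1.88-fold from α4β7+ to α4β7− CD22− eosinophils (log2 fold change −0.91 ± 0.0951, adjusted p = 1.34e-05) and 2.13-fold from α4β7+ to CD22+ (−1.09 ± 0.0951, adjusted p = 9.88e-07). The step from α4β7− CD22− to CD22+ was −0.18 ± 0.0951 (adjusted p = 0.614).

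The mean of α4β7− CD22− lay between those of the other subsets for Ccr3, Ccrl2, Ccr1l1, Ccr2, Cxcr4, and Cxcr2. It lay above both for Ccr1 and below both for Ccr9 and Cx3cr1, and whether a gene lay between was not tested. The distance of α4β7− CD22− from the midpoint of α4β7+ and CD22+ on the log2 scale was a separate comparison, in which a gene can lie between the others and still depart from the midpoint. None of the 9 genes was called by limma, where 0.63% of all tested genes were called (0.262% above and 0.367% below the midpoint), and 4 had an unadjusted p under 0.05. Cxcr4 was the one gene of the 9 with an adjusted p under 0.05, which 1.23% of all tested genes had. It lay 1.29-fold below the midpoint (log2 difference −0.37 ± 0.0824, adjusted p = 0.045). With 1 library left out in turn, this adjusted p ranged from 0.0105 to 0.148. For Ccr3 the distance from the midpoint was −0.11 ± 0.068 (adjusted p = 0.546), and for Ccr1l1 it was 0.29 ± 0.124 (adjusted p = 0.345).

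**Figure D2:**
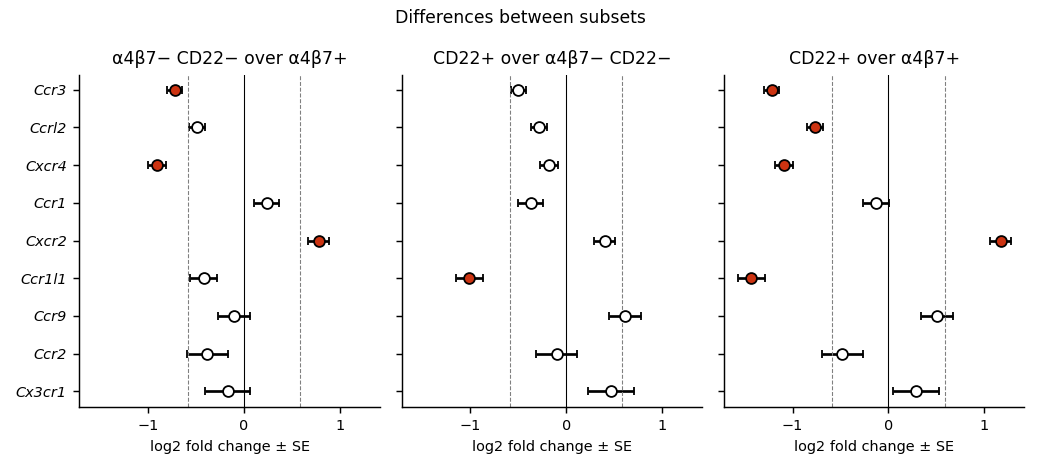
Log2 fold change (horizontal axis) of each chemokine receptor gene in the 3 comparisons of subsets, with the SE from limma as bars. Filled points passed both thresholds, the dashed lines mark a fold of 1.5, and Ccr3 and Cxcr4 are filled on the left and Cxcr2 on the right in both comparisons with α4β7+.

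Cxcr2 was the one gene of the set called higher in any comparison. It encodes the receptor through which neutrophils follow Cxcl1, Cxcl2, and related chemokines, and it is located at chr1:74153989-74161246 on the plus strand. The α4β7+ libraries held 739, 815, 856, and 712 normalized counts, the α4β7− CD22− libraries 1321, 1459, 1360.1, and 1213, and the CD22+ libraries 1853, 2050.2, 1449.8, and 1735. Every library of the latter subsets lay above every α4β7+ library, and the latter subsets overlapped. The rise was 1.71-fold in α4β7− CD22− (log2 fold change 0.78 ± 0.106, adjusted p = 0.000152) and 2.26-fold in CD22+ eosinophils (1.17 ± 0.106, adjusted p = 1.39e-06). CD22+ over α4β7− CD22− gave 0.40 ± 0.106 (adjusted p = 0.108). Of the 31-base words of Cxcr2, 12.11% occurred in other transcripts, spread over 1350 genes. Among the 9 receptor genes only Ccr9 had a larger share (21.75%).

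Because Ccr3 and Cxcr2 moved in opposite directions, their ratio within a library was also computed, which does not depend on a scaling factor shared by all genes of a library. Ccr3 had 32.4 ± 4.88 times (SD, n = 4) the normalized counts of Cxcr2 in α4β7+ eosinophils, 11.4 ± 1.05 times in α4β7− CD22−, and 6.19 ± 1.08 times in CD22+ eosinophils. The ranges were 27 to 38.8, 10.3 to 12.4, and 5.44 to 7.79, without overlap. Cxcr4 had 8.3 ± 1.49, 2.54 ± 0.143, and 1.72 ± 0.302 times the counts of Cxcr2. The ratio of Ccr3 to Cxcr4 was 3.94 ± 0.37, 4.49 ± 0.286, and 3.6 ± 0.21, so these genes kept more nearly the same proportion.

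Since Cxcr2 is best known from neutrophils, genes that mark neutrophils are given beside it. Of the 8 markers, Elane was at 0 in all 12 libraries, Camp did not exceed 1.97, and Ly6g, which the sort excluded, did not exceed 10.8 normalized counts. Ngp rose from 31.6 ± 4.27 among α4β7+ libraries to 106 ± 20 among α4β7− CD22− and 143 ± 12.9 among CD22+ libraries, in the same order as Cxcr2. Retnlg, the most abundant of the list, fell from 18828 ± 3509 to 6709 ± 857 and 3053 ± 349, and Mmp8 averaged 34.8, 24.2, and 4.98. The summed level of the 8 markers, most of it Retnlg, ranged from 14450.2 to 22093 for α4β7+, from 5991 to 8072 for α4β7− CD22−, and from 2877 to 3686 for CD22+ libraries.

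Cxcl2 and Cxcl3, which encode ligands of Cxcr2, fell across the same subsets. Cxcl2 averaged 41695 ± 5904 (SD, n = 4) for α4β7+, 27219 ± 3541 for α4β7− CD22−, and 13652 ± 1551 for CD22+ libraries, and CD22+ over α4β7+ gave a log2 fold change of −1.61 (adjusted p = 1.18e-07). Cxcl3 averaged 6467 ± 1546, 2709 ± 282, and 1205 ± 282 (−2.42, adjusted p = 1.08e-07). Of the 22 ligand genes of the 9 receptors, 15 were tested. Between CD22+ and α4β7+, 8 of these were lower (Ccl5, Ccl6, Ccl9, Cxcl1, Cxcl2, Cxcl3, Ppbp, and Mif) and none was higher, beside 6.39% and 5.6% of all tested genes. Between α4β7− CD22− and α4β7+ 7 were lower and Ccl4 was higher, beside 4.35% and 3.7%. The median log2 fold change of the tested ligand genes was −0.84 and −0.61, respectively, where all tested genes had 0.01 and 0.00. Ccl6, whose product acts on Ccr1, had the lowest adjusted p of the ligand genes between CD22+ and α4β7+ (log2 fold change −4.13, adjusted p = 1.55e-11), with a mean of 28089.7 in α4β7+ and 1593 in CD22+.

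Ccr9 encodes the receptor for Ccl25, the chemokine of the SI epithelium. Its normalized counts were 178, 280.4, 237, and 172 for α4β7+, 174, 209, 204, and 209 for α4β7− CD22−, and 311, 352, 255, and 302 for CD22+ libraries. The CD22+ libraries lay above all α4β7− CD22− libraries and overlapped with 1 α4β7+ library. CD22+ over α4β7+ gave a log2 fold change of 0.51 ± 0.166 (adjusted p = 0.0396), 1.43-fold and below the fold threshold. With 1 library left out in turn it ranged from 0.41 to 0.65 and its adjusted p from 0.0104 to 0.115, past both thresholds without α4β7+ replicate 2 (0.65) or CD22+ replicate 3 (0.60). The adjusted p was above 0.05 without α4β7+ replicate 1 or 4, without α4β7− CD22− replicate 2, and without CD22+ replicate 1, 2, or 4. It was also above 0.05 with no filter on low values, with quantile normalization, without a variance trend, and with only the compared subsets fitted, the last of these giving the highest value over the other settings (adjusted p = 0.0716, lowest 0.00772 with library totals made equal). CD22+ over α4β7− CD22− gave 0.61 ± 0.166 (adjusted p = 0.119). The Ccr9 gene model overlaps genes of both strands, Slc6a20a and Lztfl1 among those of the other strand and Gm17200 and Gm17020 on its own. In addition, 21.75% of its 31-base words occurred in other transcripts, mostly AC165425.1, so its counts are less certain than those of its neighbours.

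Ccr2 and Cx3cr1, the receptors of monocytes for Ccl2 and Cx3cl1, had low levels and were not called in any comparison. For Ccr2 the α4β7+ libraries held 95.9, 185, 173, and 189.6 normalized counts, those of α4β7− CD22− held 104, 135, 117, and 123, and those of CD22+ held 101, 98.2, 119, and 129. Replicate 1 of α4β7+ lay below the other α4β7+ libraries and below every library of the other subsets. The log2 fold changes over α4β7+ were −0.38 ± 0.212 for α4β7− CD22− (adjusted p = 0.276) and −0.48 ± 0.212 for CD22+ (adjusted p = 0.135). Without α4β7+ replicate 1 they were −0.61 (adjusted p = 0.0282) and −0.71 (adjusted p = 0.0088), and both passed the thresholds. Of the 31-base words of Ccr2, 3.48% occurred in other genes.

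For Cx3cr1 the α4β7+ libraries held 143, 149, 142, and 204 normalized counts, those of α4β7− CD22− held 84.4, 154, 163, and 179, and those of CD22+ held 139.9, 186, 226, and 234. All subsets overlapped. The log2 fold change was −0.17 ± 0.238 for α4β7− CD22− and 0.29 ± 0.238 for CD22+ over α4β7+ (adjusted p = 0.701 and 0.447). Without α4β7− CD22− replicate 1, the lowest of its subset, the former was 0.07 (adjusted p = 0.885). Other genes overlap its gene model on both strands, Wdr48 among them.

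Markers of the cells from which these low-level receptors are better known were detected in the same libraries. The 9 monocyte or macrophage markers summed to between 2506 and 2991 normalized counts for α4β7+, between 2137 and 2792 for α4β7− CD22−, and between 1792 and 3513 for CD22+ libraries, and none of them was at 0 throughout a subset. Most of the sum was Csf1r, at 1230.3 to 1980.0, while C1qa ranged from 105 to 388. The 8 T cell or ILC markers summed to between 1181 and 1813, between 715 and 1127, and between 1124 and 1563 in the same order. In the α4β7− CD22− subset, 4 of these 8 were called lower than in α4β7+ (Cd3e, Cd8a, Lck, and Il7r), beside 4.35% of all tested genes, while Cd3d (log2 fold change 0.07), Gata3 (0.06), Cd3g (−0.68), and Cd4 (−0.61) were not called. The receptor gene Cxcr6 was called lower there too (−1.04, adjusted p = 0.0254). Between CD22+ and α4β7+, 0 of the 8 markers were called by limma, with 0 at an unadjusted p under 0.05 and a median log2 fold change of −0.25, while Cxcr6 was called lower. Over the 12 libraries, with the subset means removed, Pearson's r of Cx3cr1 was 0.68 with the monocyte sum, 0.69 with the enterocyte sum, and 0.63 with both the dendritic cell and the T cell or ILC sums. Ccr2 had 0.51 with the monocyte, 0.55 with the dendritic cell, and 0.56 with the T cell or ILC sum, and Ccr9 had 0.52 with the last of these. With the sum of the eosinophil markers r was −0.69 for Ccr2, −0.59 for Cx3cr1, and −0.49 for Ccr9. The sort was gated on CD45+ MHCII− cells, yet the 7 enterocyte markers summed to between 686 and 3665 and the 6 dendritic cell markers to between 1202 and 3311 normalized counts over the libraries. Epcam, an epithelial marker, was at 241 to 941, and H2-Ab1, which encodes a chain of MHCII, at 761 to 2091. The 6 B or plasma cell markers summed to between 2476 and 7395 normalized counts, most of it Jchain at 2305 to 7155. These values describe 12 libraries that share their scaling, and the part of other cells in these receptor counts was not tested.

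**Figure D3:**
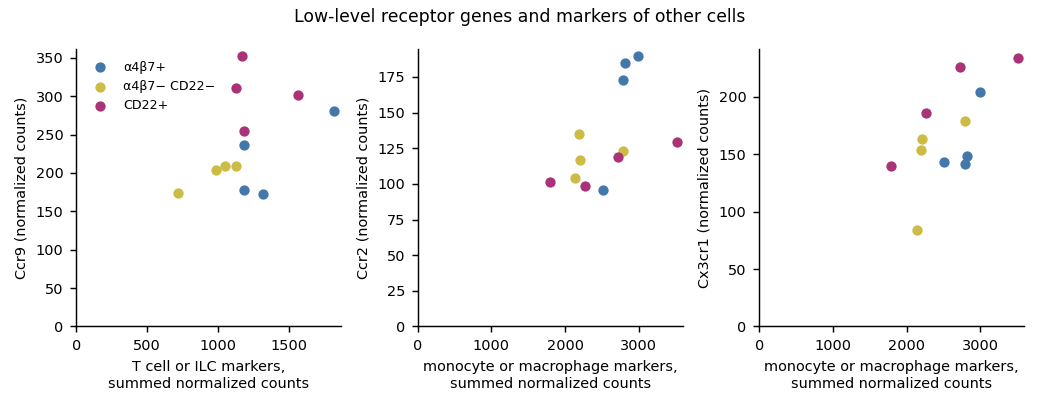
Normalized counts of Ccr9, Ccr2, and Cx3cr1 (vertical axes, from 0) against the summed normalized counts of T cell or ILC markers or of monocyte or macrophage markers (horizontal axes); each point is 1 of the 12 libraries and colours give the subset. The library with the highest monocyte sum, 3513, also has the highest Cx3cr1 value, 234, and the Ccr9 values of CD22+ lie at or above 255 over a range of T cell marker sums.

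Levels of different genes were compared per kilobase of annotated exon. In α4β7+ eosinophils Ccr3 had 7678 ± 877 normalized counts per kb (SD, n = 4), followed by Ccrl2 at 4095 ± 380.4, Cxcr4 at 3553 ± 517, Ccr1 at 1027 ± 205, Cxcr2 at 256 ± 21.8, and Ccr1l1 at 225 ± 23.4. Cx3cr1, Ccr2, and Ccr9 followed at 35.4, 23.8, and 21.1 per kb. The libraries overlapped between Ccrl2 and Cxcr4, between Cxcr2 and Ccr1l1, and between Ccr2 and Ccr9. In the other subsets the first 7 genes kept this order, while Ccr2 and Ccr9 exchanged places. Cxcr2 and Ccr1l1, which overlapped in α4β7+, stood at 439 ± 33.4 and 167 ± 8.94 per kb in α4β7− CD22− and at 581 ± 82.4 and 83.3 ± 12.2 in CD22+ eosinophils.

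The level per kb summed over the 9 genes was 16914 ± 1708 for α4β7+, 11313 ± 616 for α4β7− CD22−, and 9037 ± 219.8 for CD22+ eosinophils. Of this sum, Ccr3 made up 45.3%, 41%, and 36.5%, with library ranges of 44.8 to 46%, 39.7 to 42.5%, and 34.3 to 39.5%. The share of Cxcr2 was 1.53%, 3.88%, and 6.42%, and that of Ccrl2 was 24.3%, 25.8%, and 26.6%. Cxcr4 made up 21%, 16.6%, and 18.4%, and Ccr1 6.08%, 10.6%, and 10.3%. With the length of the longest transcript in place of all exons, Ccr9 came to 41.7, 38.3, and 58.7 per kb and moved ahead of Cx3cr1, so the order of the lowest 3 genes depends on the gene model.

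**Figure D4:**
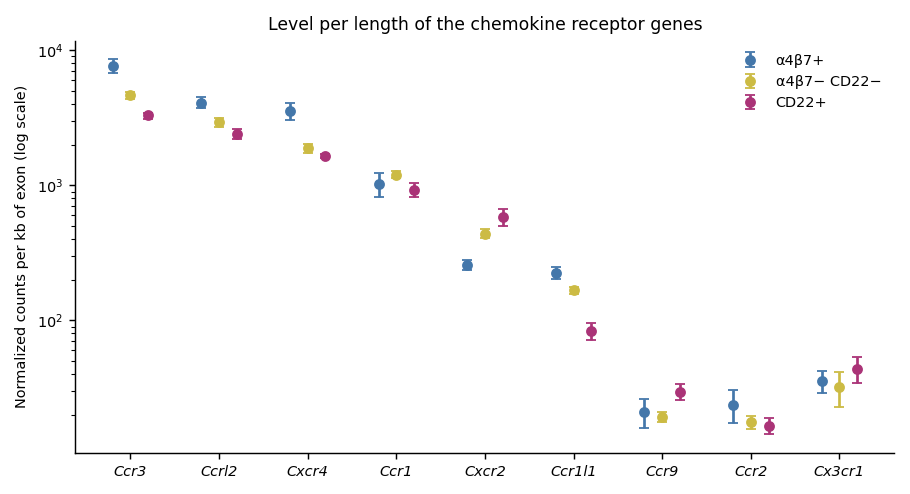
Mean normalized counts per kb of exon (vertical axis, log scale) of the 9 chemokine receptor genes in the 3 subsets, with the SD over 4 libraries as bars. Ccr3 is highest in every subset, from 7678 in α4β7+ to 3293 in CD22+, and Cxcr2 and Ccr1l1 start close together in α4β7+ and stand apart in CD22+.

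In the region of chromosome 9 from Ccr9 to Ccr2, the genes of the set differed in size of change between CD22+ and α4β7+. Ccr3 and Ccr1l1 were called lower, while Ccr1, which lies beside Ccr1l1, differed by −0.13 and Ccr2 by −0.48, and Ccr9 had the one positive value (0.51), none of these 3 called. Among the receptor genes of this region that are not in the set, Cxcr6 was lower (log2 fold change −0.86, adjusted p = 0.0473) at means of 71.1, 34.2, and 37.9 normalized counts, while Xcr1 was not called (−0.21, adjusted p = 0.722). Of 15 other chemokine receptor genes, 9 passed the filter on low values, and Cxcr6 was the one called in either comparison with α4β7+, a share near that of all tested genes (8.05% for α4β7− CD22− and 12% for CD22+).

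**Figure D5:**
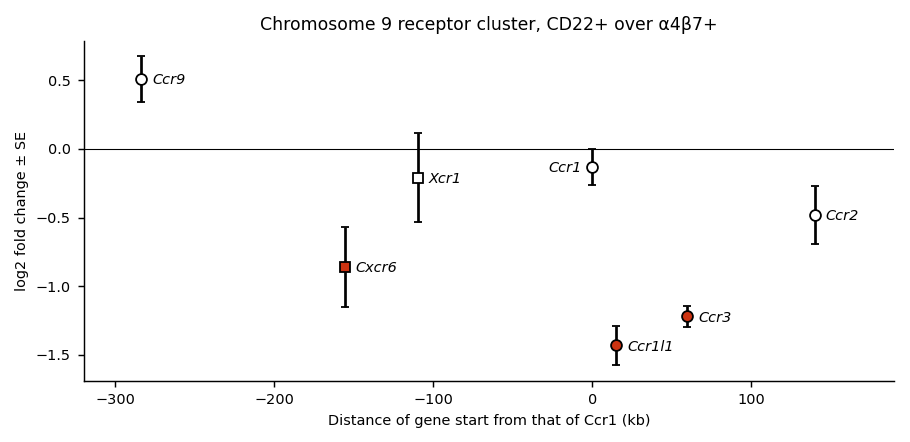
Log2 fold change of CD22+ over α4β7+ (vertical axis, with the SE as bars) for chemokine receptor genes from Ccr9 to Ccr2 on chromosome 9, by the distance of the gene start from that of Ccr1 in kb; circles are genes of the set, squares are other receptor genes, and filled points passed the thresholds. Ccr1l1 and Ccr3, at 15.1 and 59.8 kb, are filled and low, and Ccr1 is at −0.13.

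Genes that act downstream of chemokine receptors were compared from fixed lists. Of 24 tested genes for G protein subunits, small GTPases, and their partners, 0 were called by limma between α4β7− CD22− and α4β7+, with 13 at an unadjusted p under 0.05, and 1 between CD22+ and α4β7+, beside 8.05% and 12% of all tested genes. By the adjusted p alone, 10 and 15 of the 24 passed, beside 14.9% and 21.1% of all tested genes. The gene called was Fermt3, which encodes the integrin activator kindlin-3 and fell from 3229.7 ± 309 to 1777 ± 187 (log2 fold change −0.86, adjusted p = 5.73e-06). The median log2 fold change of the 24 genes between CD22+ and α4β7+ was −0.32, and Gnai2, the main inhibitory G protein subunit of leukocytes, differed by −0.51 (adjusted p = 2.07e-05), below the fold threshold. Pik3r5, a regulatory subunit of the kinase that G proteins activate, differed in the other direction (0.45, adjusted p = 7.56e-05), also below the fold threshold.

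Of 13 tested genes whose products switch receptors off, 3 were higher and 2 were lower in CD22+ than in α4β7+ eosinophils, beside 5.6% and 6.39% of all tested genes. Rgs1, which encodes a GTPase activator that ends signals through Cxcr4 and other receptors, rose from a mean of 24768 ± 3105 normalized counts among α4β7+ libraries to 73789.8 ± 7764 among α4β7− CD22− and 72608 ± 12683 among CD22+ libraries. The log2 fold changes over α4β7+ were 1.58 (adjusted p = 8.53e-07) and 1.54 (adjusted p = 4.22e-07), and the subsets without α4β7 differed by −0.03 (adjusted p = 0.968). Rgs10 rose by 0.81 and 0.93 on the log2 scale in the same comparisons (adjusted p = 0.000601 and 0.000101), and Grk3, a receptor kinase, rose by 0.88 in CD22+ (adjusted p = 0.00019). Rgs18 fell from 1096 ± 169 to 599 ± 71.8 and 324 ± 53.8 and was called in each comparison, including CD22+ against α4β7− CD22− (−0.89, adjusted p = 0.00512), and Rgs19 fell from 2635 ± 97.9 to 1646 ± 150.0 in CD22+ (−0.68, adjusted p = 1.8e-05). Arrb1, an arrestin gene, differed by 0.47 and 0.40 in α4β7− CD22− and CD22+ over α4β7+ (adjusted p = 0.00102 and 0.00227), without overlap between libraries and below the fold threshold, and Arrb2 by 0.09 and −0.00.

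For each receptor gene called between the ends, the genes most like it over the 12 libraries were found among 9168 genes with a mean of at least 100, by Pearson's r of log2 values. For Ccr3 they were Retnlg (r = 0.992) and Nrm (0.987), and for Ccr1l1 they were C1rl (0.99) and Psd3 (0.986). Cxcr4 was most like Pgd (0.988) and Cs (0.984), enzymes of the pentose phosphate pathway and the citric acid cycle, respectively. Ccrl2 was most like Gapt (0.977) and Med11 (0.976), and Cxcr2 was most like Epm2aip1 (0.977) and Atg2a (0.975), the latter a gene of autophagy. The 12 libraries share the order of the subsets, which sets much of these values. Among the receptors themselves, r with the subset means removed was 0.67 for Ccr3 with Cxcr4, 0.63 for Ccr3 with Ccr1l1, 0.34 for Ccr3 with Ccrl2, and −0.10 for Ccr3 with Cxcr2. Ccr2 had −0.72 with Ccr3 and −0.75 with Ccr1l1. These values are given as descriptions of 12 libraries.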

How the data were processed

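RNA of sorted eosinophils was sequenced from stranded total RNA libraries. Per the labels and the study's methods, the authors trimmed reads with Trimmomatic 0.39, pseudoaligned them to mm10 (GRCm38) with kallisto 0.46.1, and normalized counts with DESeq2 1.38.2. The deposited values (unit signal) are those normalized counts and are not whole numbers. In these, 13.0% to 48.0% of the low values of a library (up to 20 reads) lay within 0.02 of a whole number of reads, so no count test was run. The table held 1 column per library, and all 12 were matched by name.

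The 15249 genes with a mean above 10 were tested with limma 3.58.1 (R 4.3.3) on log2(value + 1), with a variance trend, all 3 subsets in the model, and Benjamini-Hochberg adjustment over all tested genes within each comparison. Fold changes on this scale understate those of low genes. Scripts were tested on simulated data. Figures and tables used Python 3.11.15, pandas 2.3.3, and matplotlib 3.10.9. All 36047 identifiers matched GENCODE M21 (GRCm38), which gave coordinates and exon lengths. Upstream windows came from RefSeq (GRCm38.p6).

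The members and gene lists were chosen with earlier results of these data known. Named genes were the 9 receptors, genes of the lists beside them (1 is not reported here), and the pair of genes most like each called receptor with a mean of at least 100. Alternatives were quantile normalization, scaling to the 75th percentile, pseudocounts of 0.1 and 10, a filter at 50 and none, the adjusted p alone, no variance trend, a fit of the compared subsets only, a replicate block, each library left out, the longest transcript as length, and, chosen after seeing the data, equal library totals.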

Additional observations from a re-analysis of the deposited data

Results flagged for a closer look

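In 3 of 27 sets of 4 libraries (9 genes in 3 subsets), 1 library stood far from the other 3, with a gap to the nearest beyond Dixon's critical value, and chance gives about 1 in 20 such sets. Ccrl2 had 12105 normalized counts in α4β7+ replicate 1, above the others by 0.842 of the range. Ccr9 had 174 normalized counts in α4β7− CD22− replicate 1, below the others by 0.847 of the range. Cx3cr1 had 204 normalized counts in α4β7+ replicate 4, above the others by 0.893 of the range.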

How the results depend on the processing

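For the 36 fold changes of the receptor genes, 380 of 387 values under other settings kept their direction and their call. The same held for 426 of 432 values with 1 library left out. A call takes the adjusted p and the fold together, so a value that crossed the adjusted p threshold without a change of call counted as kept. Such values included Ccr9 between CD22+ and α4β7+, whose adjusted p (0.0396) reached 0.0716 under other settings and 0.115 with 1 library left out. For Cxcr4 at the midpoint it (0.045) reached 0.158 and 0.148. With quantile normalization 2 receptor genes were called between α4β7− CD22− and α4β7+, since Ccr3 was below the fold threshold. With the adjusted p alone, 4, 6, 2, and 1 receptor genes were called in the comparisons of α4β7− CD22− with α4β7+, CD22+ with α4β7+, CD22+ with α4β7− CD22−, and α4β7− CD22− with the midpoint of the other subsets, respectively, and 2265, 3223, 164, and 187 genes in all. Without a variance trend 54 genes in all were called between CD22+ and α4β7− CD22−. When library totals were made equal, the median of all genes between CD22+ and α4β7+ moved from 0.01 to 0.171, which took Ccr1 from −0.13 to 0.03 (adjusted p = 0.899) and Ccr9 to 0.67 (adjusted p = 0.00772, called). Relative to the median of all genes, Ccr1 was at −0.14 and Ccr9 at 0.50 under both scalings, so both changes follow the shift of all genes. The share of called genes that were higher then was 68.7% (46.7% as deposited) for CD22+ and 61.9% (45.9%) for α4β7− CD22− over α4β7+, and 47.6% (34.8%) for CD22+ over α4β7− CD22−. With 1 library left out, 56 to 101 genes in all departed from the midpoint, the lowest without α4β7− CD22− replicate 1. Between α4β7− CD22− and α4β7+, Ccr9 ranged from −0.20 to 0.04 (0.04 without α4β7+ replicate 2) and Cx3cr1 from −0.29 to 0.07 (0.07 without α4β7− CD22− replicate 1). Apart from effects set by the alternative itself, the cause was not tested.

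Whether the replicate numbers pair the libraries across subsets is not settled here, and the main fit did not pair them. In 10 of 12 cases the same number correlated best in deviations from the subset means. Of these 12 same-numbered correlations, 7 were over 0.1 (range −0.0586 to 0.203). Between CD22+ and α4β7− CD22− all 4 same-numbered correlations were over 0.1. The fit with a replicate block called 3, 5, 1, and 0 receptor genes and 1254, 1843, 100, and 109 genes in all, and changed no receptor call.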
